A study of Mus musculus with 12 samples.

Results

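Keratin-associated proteins are the small matrix proteins of the hair shaft, and the mouse genes that encode them are named Krtap with a subfamily number. All genes whose symbol is Krtap followed by a digit were taken, which gave 58 of the 55401 genes listed for mouse dorsal skin, in 27 subfamilies. The choice used names alone and no measured value, and the 58 symbols were the same in the GENCODE M21 annotation. The libraries, 3 in each of 4 groups, held RNA of dorsal skin that C57BL/6J mice gave at day 29. The CRS+IMQ group received chronic restraint stress and imiquimod, the IMQ group imiquimod alone, the CRS group restraint stress alone, and the control group no treatment. Restraint stress confines an animal and activates its stress hormone axis, and imiquimod, an agonist of Toll-like receptor 7, produces a psoriasis-like inflammation in mouse skin. Age, sex, dose and schedule were absent from the labels, and nothing in them ties a library to an animal of its own. Hence p-values speak for the spread among these libraries alone, which may be technical.

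Keratin-associated proteins fill the space between keratin filaments in the cortex and cuticle of the hair shaft and cross-link them, many of them through disulfide bonds of their cysteines. Their genes are short, lie in clusters, and are transcribed late in the differentiation of shaft cells, above the bulb of a growing (anagen) follicle, after the hair keratins have started. They are sorted by composition into high-sulfur, ultra-high-sulfur and high-glycine-tyrosine proteins. Dorsal skin holds many cell types, and in such bulk RNA a smaller number of shaft cells and less RNA per shaft cell cannot be told apart.

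The composition that gives the classes their names can be read from the genes themselves. From the coding sequences of GENCODE M21, 21 of the 58 genes were ultra-high sulfur (at least 30% cysteine codons), 15 were high glycine-tyrosine (at least 35% glycine plus tyrosine codons) and 15 were high sulfur (at least 10% cysteine codons). Another 6 met no threshold, namely Krtap7-1, Krtap13-1, Krtap14, Krtap15, Krtap24-1 and Krtap27-1, and Krtap19-9a had no coding sequence. By convention family 7 counts as high glycine-tyrosine and families 13, 14 and 15 as high sulfur, so the codon classes can differ from the usual names. Stretches of 90 bases from the coding strand of 3 genes show the contrast between classes. Codons in capitals encode glycine or tyrosine in Krtap8-1 (18 of 30) and cysteine in Krtap17-1 (15 of 30) and Krtap3-2 (8 of 30).
Krtap8-1, codons 17 to 46: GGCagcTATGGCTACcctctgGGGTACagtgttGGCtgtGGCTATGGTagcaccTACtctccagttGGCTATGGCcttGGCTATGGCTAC
Krtap17-1, codons 10 to 39: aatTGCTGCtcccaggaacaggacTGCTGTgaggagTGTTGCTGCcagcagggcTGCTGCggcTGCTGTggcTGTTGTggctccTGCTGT
Krtap3-2, codons 2 to 31: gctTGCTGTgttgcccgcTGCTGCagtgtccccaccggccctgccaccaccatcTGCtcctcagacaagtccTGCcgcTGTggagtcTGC

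The 58 genes lay on chromosome 16 (25 genes), chromosome 11 (23 genes), chromosome 7 (5 genes, all of subfamily 5), chromosome 10 (3 genes) and chromosome 1 (2 genes). They also shared a promoter feature that their names do not use. RefSeq promoters on GRCm38.p6 were matched for 51 of the 58. The letters TATAAA, on either strand in the 250 bases before the start, were found in 41 of these 51 promoters (80.4%), against 12.4% of all 32851 promoters of the same length. On the gene's own strand, at 50 to 11 bases before the start, they were found in 34 of the 51 (66.7%), against 2.4% of all promoters. The 100 bases before the start are printed, on the gene's strand, for 4 genes whose levels are given below: Krtap3-1 and Krtap3-2, which lie near each other and differ in which of CRS and control skin is higher, and Krtap8-1 and Krtap11-1 of the chromosome 16 cluster. Capitals mark TATAAA.
Krtap3-1, chr11:99566631-99566730, minus strand: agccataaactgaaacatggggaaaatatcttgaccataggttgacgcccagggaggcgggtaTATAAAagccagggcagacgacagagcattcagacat
Krtap3-2, chr11:99556854-99556953, minus strand: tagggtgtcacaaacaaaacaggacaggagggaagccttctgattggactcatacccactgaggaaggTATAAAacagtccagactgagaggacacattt
Krtap8-1, chr16:89487953-89488052, minus strand: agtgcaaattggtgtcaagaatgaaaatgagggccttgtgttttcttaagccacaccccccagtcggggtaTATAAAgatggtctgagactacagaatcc
Krtap11-1, chr16:89571184-89571283, minus strand: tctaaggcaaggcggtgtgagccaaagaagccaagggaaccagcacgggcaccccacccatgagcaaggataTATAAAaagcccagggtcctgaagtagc

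Other letters, searched on both strands of the 250 bases, gave a mixed picture. The letters CTTTGA, read by LEF1 and TCF factors, were in 23.5% of the 51 Krtap promoters, against 13.8% of all promoters. The related letters CTTTGT were in 29.4% of the 51, against 16.5% of all. TGANTCA, the AP-1 motif, was in 19.6% of the Krtap promoters against 6.75% of all. TGTTCT, a glucocorticoid receptor half-site, was in 9.8% against 16.1%, and GACGC, read by FOXN1, in 5.88% against 22.6%. Krtap promoters of a cluster resemble each other and a match is a description of letters only.

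Levels are FPKM, fragments scaled to transcript length and library depth, as the authors deposited them. Most Krtap genes were low or at 0. Of the 58, 42 never reached 1 FPKM in any library, 12 had a group mean of at least 1 FPKM, and 7 were listed at 0 in all 12 libraries (Krtap5-1, Krtap9-5, Krtap13, Krtap20-2, Krtap27-1, Krtap31-1 and Krtap31-2). The number of Krtap genes above 0 per library was 25, 29 and 24 in CRS+IMQ skin, 8, 21 and 13 in IMQ skin, 45, 46 and 47 in CRS skin, and 8, 7 and 9 in control skin. Genes above 0 in all 3 libraries of a group numbered 13 in CRS+IMQ, 5 in IMQ, 40 in CRS and 3 in control. CRS skin thus had more Krtap genes above 0 than every library of the other groups. The CRS mean was the highest of the 4 group means for 46 genes, the control mean for 2, the IMQ mean for 2 and the CRS+IMQ mean for 1. At the estimated depth of 19.16 to 21.12 M fragments per library, 1 fragment of Krtap7-1 is worth about 0.0784 FPKM, so a value of 0 leaves low levels undetected.

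The summed FPKM of all Krtap genes hid opposite movements of single genes. It was 7.29, 8.59 and 8.72 in CRS+IMQ skin, 4.56, 9.34 and 6.94 in IMQ skin, 46.5, 42.0 and 44.2 in CRS skin, and 29.4, 25.3 and 22.6 in control skin. In control skin 1 gene, Krtap3-2, supplied 82.8%, 88.6% and 85.8% of that sum. Its share was 5.38%, 0% and 2.97% in CRS+IMQ skin, 38.9%, 24.2% and 26.7% in IMQ skin, and 5.12%, 5.34% and 4.0% in CRS skin. Without Krtap3-2 the other 57 genes summed to 6.90, 8.59 and 8.46 FPKM in CRS+IMQ skin, 2.79, 7.08 and 5.09 in IMQ skin, 44.1, 39.8 and 42.5 in CRS skin, and 5.05, 2.89 and 3.21 in control skin. By this sum the CRS libraries stood above all others, and the IMQ and control libraries overlapped.

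**Figure D1:**
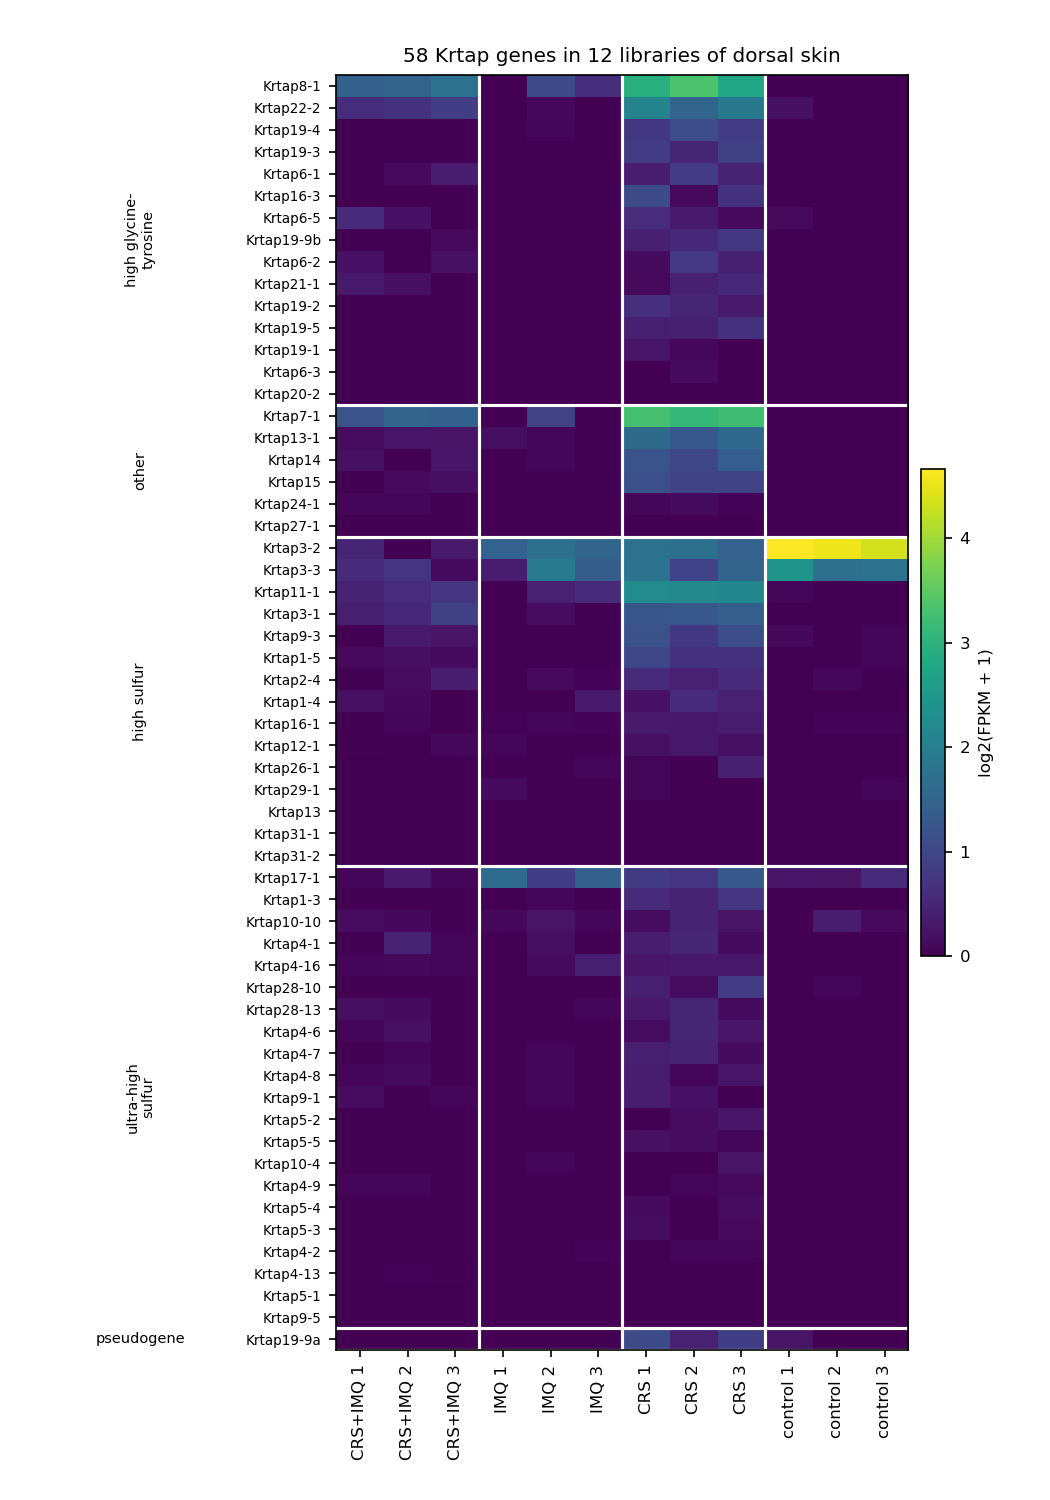
Levels of the 58 Krtap genes as log2(FPKM + 1), 1 row per gene sorted by protein class and mean, and 1 column per library. The 3 CRS columns are lit in most rows (45, 46 and 47 genes above 0), and the 3 control columns in few (8, 7 and 9), with Krtap3-2 as the brightest control row.

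High-glycine-tyrosine genes, whose products are short, were near 0 in control skin and highest in CRS skin. Summed over the 15 of them, FPKM was 3.18, 2.78 and 3.69 in CRS+IMQ skin, 0, 1.22 and 0.519 in IMQ skin, 14.8, 16.0 and 13.6 in CRS skin, and 0.221, 0 and 0 in control skin. Krtap8-1 (ENSMUSG00000059632, chr16:89487379-89487952, minus strand) had the highest mean level of the class. It had 1.73, 1.78 and 2.36 FPKM in CRS+IMQ skin, 0, 1.10 and 0.519 in IMQ skin, 6.66, 9.08 and 5.93 in CRS skin, and was listed at 0 in all 3 control libraries. The 4 groups did not overlap for Krtap8-1, in the order CRS, CRS+IMQ, IMQ, control, except that 1 IMQ library was at 0 like the controls. Krtap22-2 had 0.522, 0.605 and 0.798 FPKM in CRS+IMQ skin, 0, 0.0665 and 0 in IMQ skin, 3.26, 1.87 and 2.70 in CRS skin, and 0.137, 0 and 0 in control skin. Its CRS libraries lay above all others and its CRS+IMQ libraries above IMQ and control.

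The subfamily 19 genes, a group of 7 on chromosome 16, stayed low. Their summed FPKM was 0, 0 and 0.0872 in CRS+IMQ skin, 0, 0.0544 and 0 in IMQ skin, 3.96, 3.14 and 3.97 in CRS skin, and 0.180, 0 and 0 in control skin. Subfamily 6, with 4 genes, summed to 0.657, 0.248 and 0.444 FPKM in CRS+IMQ skin, 0 in every IMQ library, 0.899, 1.86 and 0.771 in CRS skin, and 0.0840, 0 and 0 in control skin. Subfamily 19 was thus near 0 in CRS+IMQ skin, and subfamily 6 was not. Over all subfamilies, 41 of the 58 genes share at least 1 stretch of 50 bases with another gene, so the split of fragments among them is uncertain. Krtap7-1, Krtap8-1, Krtap11-1, Krtap13-1, Krtap14, Krtap15, Krtap17-1 and Krtap22-2 are among the 17 that share none.

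Genes of the chromosome 16 cluster outside the glycine-tyrosine class had the same order of groups at the top. Krtap7-1 (ENSMUSG00000056706, chr16:89507703-89508323, minus strand), whose coding sequence holds 29.9% glycine and tyrosine codons, had 1.28, 1.86 and 1.71 FPKM in CRS+IMQ skin, 0, 0.860 and 0 in IMQ skin, and 8.81, 7.59 and 8.30 in CRS skin, and was listed at 0 in all 3 control libraries. Krtap11-1 had 0.378, 0.511 and 0.670 FPKM in CRS+IMQ skin, 0, 0.337 and 0.496 in IMQ skin, 3.76, 3.56 and 3.54 in CRS skin, and 0.0563, 0 and 0 in control skin. For Krtap7-1 the groups did not overlap apart from shared zeros of IMQ and control, whereas for Krtap11-1 the CRS+IMQ and IMQ libraries overlapped. Krtap13-1 had 0.120, 0.220 and 0.193 FPKM in CRS+IMQ skin, 0.134, 0.0648 and 0 in IMQ skin, and 2.05, 1.46 and 2.01 in CRS skin, and was listed at 0 in the controls. Krtap14 had 0.161, 0 and 0.216 FPKM in CRS+IMQ skin, 0, 0.0547 and 0 in IMQ skin, and 1.29, 0.986 and 1.61 in CRS skin, and was listed at 0 in the controls. Krtap15 had 0, 0.0908 and 0.138 FPKM in CRS+IMQ skin, 0 in all IMQ libraries, and 1.19, 0.938 and 0.943 in CRS skin, and was listed at 0 in the controls. For these 3 genes only the CRS libraries stood clear of the rest. The spans of Krtap14 and Krtap15 overlap on opposite strands, but their exons in GENCODE M21 share 0 bases. Exons of Krtap15 share 201 bases with those of 4930553J12Rik on the same strand, so fragments there could belong to either gene.

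Subfamily 3, made of high-sulfur proteins, held genes that ran in opposite directions on chromosome 11. Krtap3-2 (ENSMUSG00000069721, chr11:99555823-99556853, minus strand) had 0.392, 0 and 0.259 FPKM in CRS+IMQ skin, 1.78, 2.26 and 1.85 in IMQ skin, 2.38, 2.24 and 1.77 in CRS skin, and 24.3, 22.4 and 19.4 in control skin. All control libraries lay above all others, IMQ and CRS libraries overlapped, and CRS+IMQ libraries lay lowest. Krtap3-3 (ENSMUSG00000069722, chr11:99550130-99550865) had 0.487, 0.654 and 0.0989 FPKM in CRS+IMQ skin, 0.279, 2.77 and 1.58 in IMQ skin, 2.44, 0.915 and 1.80 in CRS skin, and 4.33, 2.26 and 2.43 in control skin. Here the CRS and control libraries overlapped. Krtap3-1 (ENSMUSG00000047564, chr11:99566027-99566630) had 0.312, 0.458 and 0.844 FPKM in CRS+IMQ skin, 0, 0.119 and 0 in IMQ skin, and 1.39, 1.41 and 1.66 in CRS skin, and was listed at 0 in the controls. Krtap3-1 thus had its highest levels in CRS skin, where Krtap3-2 was near its IMQ level.

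The coding sequences of Krtap3-2 and Krtap3-3 were identical over all 297 bases, and Krtap3-1 was 83.28% identical to each. Of the 50-base stretches of the transcripts, 28.9% of those in Krtap3-2, 41.3% in Krtap3-3 and 8.83% in Krtap3-1 occurred in another gene, always another member of subfamily 3. Fragments within the shared coding sequence could have been assigned to either Krtap3-2 or Krtap3-3, and only the flanks of the transcripts separate them. The division between these genes is therefore uncertain. Summed over subfamily 3, FPKM was 1.19, 1.11 and 1.202 in CRS+IMQ skin, 2.05, 5.16 and 3.43 in IMQ skin, 6.21, 4.57 and 5.23 in CRS skin, and 28.6, 24.7 and 21.8 in control skin. The control libraries stood above all others in this sum too.

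Krtap9-3 is by its codons another high-sulfur gene. It had 0, 0.259 and 0.192 FPKM in CRS+IMQ skin, 0 in all IMQ libraries, 1.23, 0.692 and 1.16 in CRS skin, and 0.0654, 0 and 0.0556 in control skin. The ultra-high-sulfur genes, which carry the most cysteines and of which families 5 and 10 are known from the cuticle of human hair, were low in every group. Summed over the 21 of them, FPKM was 0.626, 1.31 and 0.258 in CRS+IMQ skin, 2.18, 1.52 and 2.13 in IMQ skin, 3.74, 3.84 and 4.80 in CRS skin, and 0.196, 0.540 and 0.574 in control skin. Krtap17-1 had its highest group mean in IMQ skin, as did Krtap29-1 at a mean of 0.0333 FPKM. Krtap17-1 had 0.0628, 0.258 and 0.0638 FPKM in CRS+IMQ skin, 2.10, 0.830 and 1.70 in IMQ skin, 0.726, 0.623 and 1.47 in CRS skin, and 0.196, 0.191 and 0.486 in control skin. IMQ and CRS libraries overlapped for Krtap17-1, and each lay above all control libraries. The 8 genes of subfamily 4 were at 0 in all controls and summed to 1.203, 1.59 and 0.972 FPKM in CRS skin. The 5 genes of subfamily 5 were listed at 0 in every library outside CRS skin, where they summed to 0.371, 0.225 and 0.467 FPKM.

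**Figure D2:**
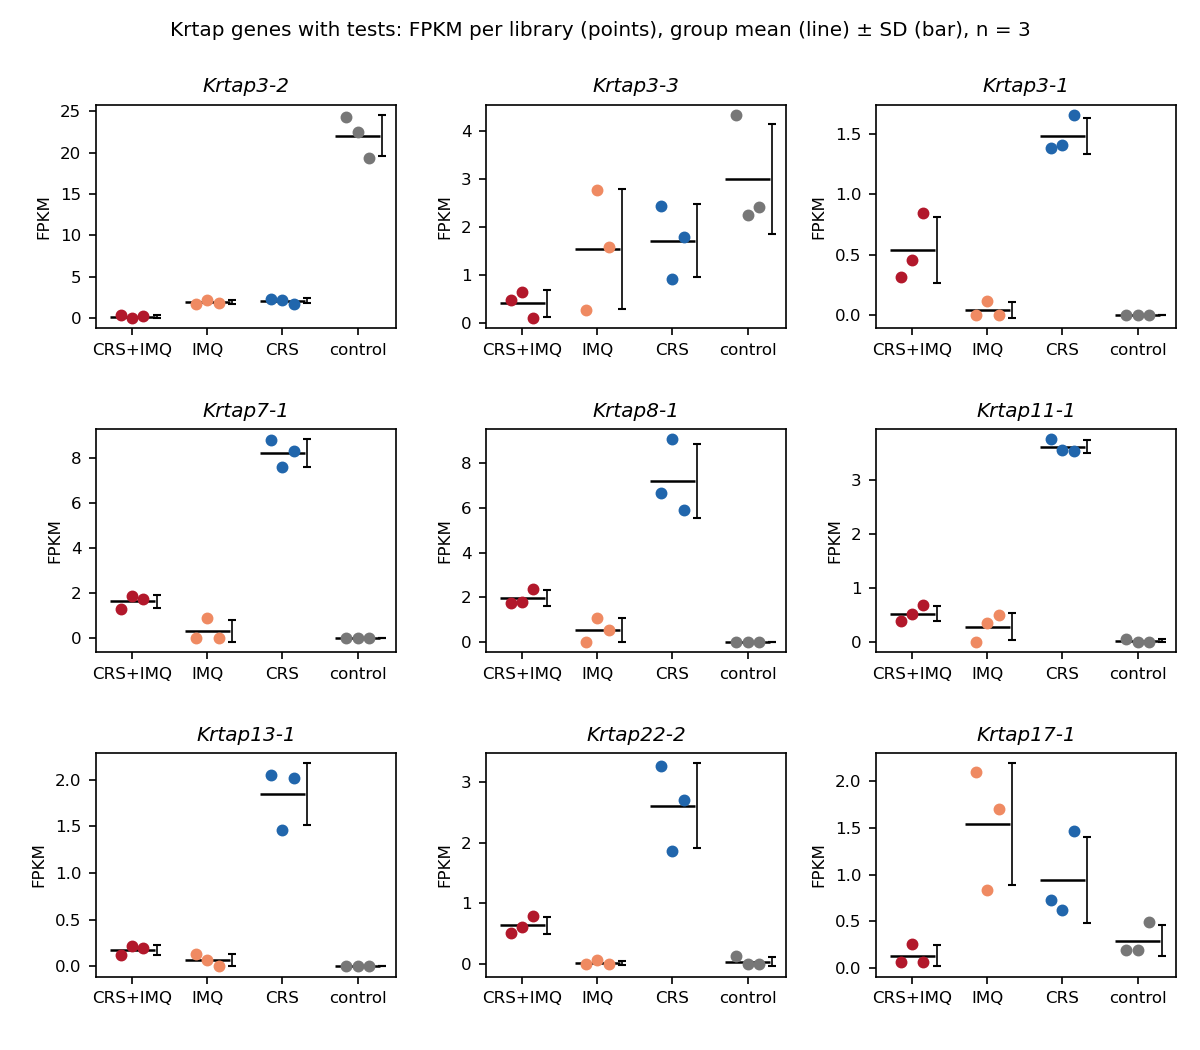
FPKM of 9 Krtap genes in each library (points), with the group mean (line) and SD (bar) over 3 libraries; each panel has its own linear axis. Krtap3-2 is at 19.4 to 24.3 in control skin and at most 2.38 elsewhere, Krtap17-1 has its highest library in IMQ skin, and 6 of the other panels have their 3 highest points in CRS skin.

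The comparison of CRS with control skin asked what restraint stress changed without imiquimod. Hair shaft matrix transcripts were higher in CRS skin for most Krtap genes that could be tested, and Krtap3-2 was lower. Levels were log2(FPKM + 1), fitted with limma over the 13944 genes that reached 1 FPKM in 3 or more of the 6 libraries, with Benjamini-Hochberg adjustment and a call at an adjusted p under 0.05. Of 58 Krtap genes 8 could be tested, 6 rose, 1 fell and 1 did not pass, where 15.3% of all tested genes rose and 28.4% fell. All 6 that rose passed the filter through the CRS libraries alone, so their direction was fixed by the filter, and their count supports no more than the values do. Krtap7-1 rose by 3.20 on the log2 scale (SE 0.0813, adjusted p = 1.74e-05), Krtap8-1 by 3.02 (SE 0.146, adjusted p = 0.000116) and Krtap11-1 by 2.18 (SE 0.0751, adjusted p = 4.52e-05). Krtap22-2 rose by 1.77 (adjusted p = 0.000516), Krtap13-1 by 1.5 (adjusted p = 0.000274) and Krtap3-1 by 1.31 (adjusted p = 0.00018). These changes depend on the added 1 FPKM, since the controls were at or near 0.

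Krtap3-2 fell by 2.88 on the log2 scale (SE 0.119, adjusted p = 0.000104), with means of 2.13 ± 0.320 FPKM in CRS skin and 22.04 ± 2.48 FPKM in control skin (SD, n = 3 each). It is one of the 2 Krtap genes, with Krtap3-3, that reached 1 FPKM in controls. Krtap3-3 changed by -0.56 (95% interval -1.23 to 0.11, adjusted p = 0.146), with means of 1.72 ± 0.766 FPKM in CRS skin and 3.01 ± 1.15 FPKM in control skin. The fall of the subfamily was thus carried by Krtap3-2, within the uncertainty of the split between these identical coding sequences. With all genes above 0 tested, 23 Krtap genes rose and 1 fell of 50, where 6.74% of all genes rose and 13.2% fell. All 3 CRS libraries lay above all 3 control libraries for 36 of the 50 Krtap genes above 0, and below them for 1, Krtap3-2, against 15.3% and 22.3% of all such genes. Of these 36, 27 were at 0 in all controls. A gene at 0 in all controls could only be higher in CRS skin, so the counts of 23 and 36 are descriptions and no support.

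In the authors' deposited table, 7 Krtap genes were marked significant and up for CRS over control (Krtap7-1, Krtap8-1, Krtap11-1, Krtap13-1, Krtap14, Krtap15 and Krtap22-2), where 1.79% of all genes were. The only Krtap gene that the authors' deposited table marked down was Krtap3-2, with a ratio of 0.0967 and a q-value of 8.49e-26, where 4.29% of all genes were. The very large ratios for genes at 0 in controls come from the value of 0.0001 that the table holds in place of 0, and are not repeated here.

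The comparison of CRS+IMQ with IMQ skin asked what stress changed in skin treated with imiquimod. Of the Krtap genes tested, Krtap7-1 and Krtap8-1 rose and Krtap3-2 fell, so 2 of 3 rose and 1 fell, where 18.7% of all 13981 tested genes rose and 18.2% fell. Krtap7-1 and Krtap8-1 passed the filter through the CRS+IMQ libraries and Krtap3-2 through the IMQ libraries, so the filter favoured these directions and nothing is read from the count. Krtap7-1 rose by 1.08 (SE 0.264, adjusted p = 0.0223), with means of 1.62 ± 0.300 FPKM in CRS+IMQ skin and 0.287 ± 0.497 FPKM in IMQ skin. Krtap8-1 rose by 1.0 (SE 0.273, adjusted p = 0.0326), with means of 1.96 ± 0.354 and 0.540 ± 0.550 FPKM in CRS+IMQ and IMQ skin. Krtap3-2 fell by 1.29 (SE 0.146, adjusted p = 0.00121), with means of 0.217 ± 0.199 and 1.96 ± 0.263 FPKM in CRS+IMQ and IMQ skin. The rises of Krtap7-1 and Krtap8-1 depended on single libraries. With each left out in turn, Krtap7-1 had adjusted p = 0.0767 without CRS+IMQ replicate 2, 0.072 without CRS+IMQ replicate 3 and 0.0735 without IMQ replicate 3, and Krtap8-1 had 0.0772, 0.0814, 0.103 and 0.0847 without CRS+IMQ replicate 1, 2 or 3 or IMQ replicate 3, while Krtap3-2 passed in all 6 cases. Krtap8-1 also did not pass with 0.1 FPKM added (adjusted p = 0.0959) or with every gene above 0 tested (adjusted p = 0.0645).

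Without the filter 4 Krtap genes rose (Krtap7-1, Krtap22-2, Krtap3-1 and Krtap1-5) and 2 fell (Krtap3-2 and Krtap17-1) of 39, where 9.04% of all genes rose and 7.14% fell. Krtap17-1 then fell by 1.14 (adjusted p = 0.0175), with means of 0.128 ± 0.112 FPKM in CRS+IMQ skin and 1.54 ± 0.651 FPKM in IMQ skin. The groups did not overlap for 5 higher and 2 lower Krtap genes of 39, against 16.2% and 18.7% of all genes above 0. Krtap genes at 0 in all IMQ libraries, such as Krtap1-5, could only rise, so nothing is read from these counts. In the authors' deposited table Krtap7-1 and Krtap8-1 were marked up, where 3.29% of all genes were, and Krtap3-2, Krtap3-3 and Krtap17-1 were marked down, where 2.71% were. The authors' deposited table gave q-values of 0.0532 for Krtap7-1 and 0.0669 for Krtap3-3, so its mark did not follow a q-value under 0.05.

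Comparisons of IMQ with control and of CRS+IMQ with CRS set libraries from the 2 deposited tables against each other, so that imiquimod and the table a library is in cannot be told apart. They also share their libraries with the comparisons above. In IMQ against control skin, 2 Krtap genes were tested, 0 rose and 1 fell, where 6.11% of all tested genes rose and 13.5% fell. Krtap3-2 fell by 2.96 (SE 0.132, adjusted p = 0.000284), with means of 1.96 ± 0.263 FPKM in IMQ skin and 22.04 ± 2.48 FPKM in control skin. Krtap3-3 changed by -0.75 (95% interval -1.72 to 0.21, adjusted p = 0.232). At an unadjusted p under 0.05, 1 Krtap gene was counted, Krtap3-2. Without the filter 0 of 32 rose and 1 fell, where 1.59% of all genes rose and 5.15% fell. Of 32 Krtap genes above 0, 2 were higher in all 3 IMQ libraries than in all 3 controls (Krtap17-1 and, at up to 0.0515 FPKM, Krtap16-1) and 1 was lower (Krtap3-2), against 13.1% and 15.7% of all genes. Krtap17-1 had an adjusted p of 0.0581 without the filter, with a change of 0.95.

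In CRS+IMQ against CRS skin, all 7 Krtap genes tested fell and 0 rose, where 25.9% of all 14021 tested genes fell and 35% rose. The fall was 1.82 for Krtap7-1 (SE 0.102, adjusted p = 2.05e-05) and 1.61 for Krtap11-1 (SE 0.0843, adjusted p = 1.53e-05). Krtap8-1 fell by 1.46 (adjusted p = 0.000456), Krtap3-2 by 1.37 (adjusted p = 0.000359), Krtap13-1 by 1.26 (adjusted p = 0.000105), Krtap22-2 by 1.12 (adjusted p = 0.00125) and Krtap3-1 by 0.71 (adjusted p = 0.00505). Of the 7, Krtap7-1 and Krtap8-1 reached 1 FPKM in every CRS+IMQ library too. The other 5 passed the filter through the CRS libraries alone, so they could only be lower in CRS+IMQ skin, and their count is no support. Without the filter 25 of 51 fell and 0 rose, where 13.5% of all genes fell and 17.7% rose. All 3 CRS+IMQ libraries lay below all 3 CRS libraries for 31 of 51 Krtap genes and above for 0, against 19.3% and 23.5% of all genes. Krtap genes at 0 in all CRS+IMQ libraries could only be counted as lower, so nothing is read from these counts either. With each stressed group averaged to 1 sample this comparison has no spread of its own, and with the spread of the IMQ and control libraries in its place Krtap7-1 had an adjusted p of 0.0511 and Krtap8-1 of 0.0967.

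The interaction compared the effect of stress with imiquimod, CRS+IMQ minus IMQ, and the effect of stress without it, CRS minus control. It was fitted on all 12 libraries, and both differences lie within a deposited table. Of 9 Krtap genes tested, 7 had a lower and 1 a higher effect of stress under imiquimod, where 21.2% of all 14864 tested genes were lower and 28.1% higher. The difference of effects was -2.12 for Krtap7-1 (SE 0.293, adjusted p = 0.000161), -2.02 for Krtap8-1 (SE 0.329, adjusted p = 0.000487) and -1.91 for Krtap11-1 (SE 0.193, adjusted p = 1.63e-05). It was -1.71 for Krtap17-1 (adjusted p = 0.00077), -1.36 for Krtap13-1 (adjusted p = 2.23e-05), -1.09 for Krtap22-2 (adjusted p = 0.000876) and -0.76 for Krtap3-1 (adjusted p = 0.00389). Krtap3-2 had a difference of 1.59 (SE 0.197, adjusted p = 7.77e-05), since it fell by less between CRS+IMQ and IMQ than between CRS and control. Krtap11-1, Krtap13-1, Krtap22-2 and Krtap3-1 reached 1 FPKM in the CRS libraries alone, so the filter favoured a negative difference without fixing it. Krtap17-1 reached 1 FPKM in IMQ replicates 1 and 3 and CRS replicate 3 alone, which favoured the same sign. The count of 7 is therefore no support. With 0.1 FPKM added in place of 1, the difference of Krtap3-2 was 0.34 (adjusted p = 0.696), so on a scale nearer to ratios the effects on Krtap3-2 were not shown to differ. Krtap3-3 did not pass (-0.17, 95% interval -1.34 to 0.99, adjusted p = 0.81). Without the filter 24 of 51 were lower and 1 higher, where 10% of all genes were lower and 14.5% higher. Genes above 0 in the CRS libraries alone could only have a negative difference there, so nothing is read from that count.

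**Figure D3:**
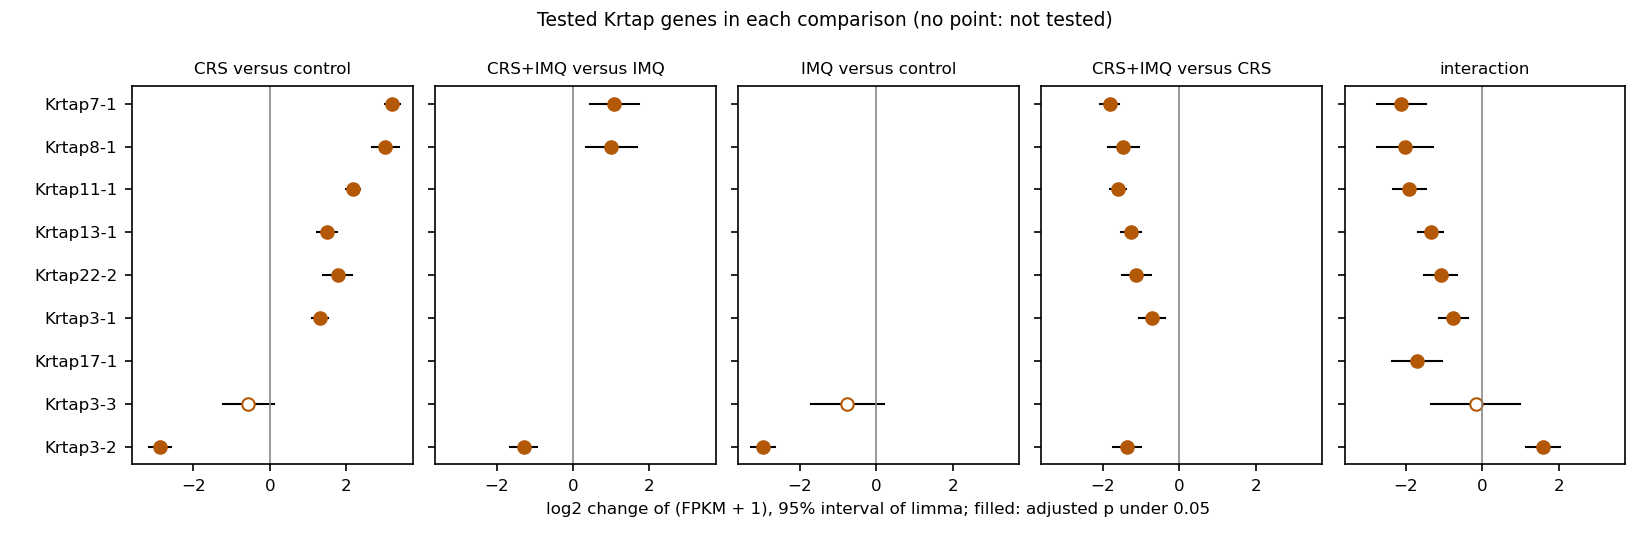
Log2 change of (FPKM + 1) with its 95% interval for the Krtap genes tested in each comparison and in the interaction; filled points passed an adjusted p under 0.05, and a gene without a point was not tested there. Krtap3-2 lies left of 0 in all 4 comparisons between groups (-2.88, -1.29, -2.96 and -1.37), and the CRS+IMQ versus CRS points all lie left of 0.

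Hair keratins, which form the filaments that Krtap proteins embed, did not keep a constant ratio to the Krtap genes. Of 15 cortex and cuticle keratin genes listed, 14 were matched, and their summed FPKM was 5.97, 6.67 and 5.81 in CRS+IMQ skin, 8.55, 127 and 58.2 in IMQ skin, 48.4, 50.6 and 51.2 in CRS skin, and 6.22, 6.86 and 5.27 in control skin. The sum of 8 inner root sheath keratins, made by the layer that moulds the growing shaft, was 7.44, 7.97 and 5.84 FPKM in CRS+IMQ skin, 28.3, 944 and 398 in IMQ skin, 171, 165 and 179 in CRS skin, and 1.69, 1.19 and 1.10 in control skin. IMQ replicates 2 and 3 thus stood apart from IMQ replicate 1, and replicate 2 had the highest hair keratin sums of all 12 libraries. Its Krtap genes without Krtap3-2 summed to 7.08 FPKM, below every CRS library.

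The summed Krtap genes without Krtap3-2, divided by the cortex and cuticle keratins, gave 1.15, 1.29 and 1.46 in CRS+IMQ skin, 0.326, 0.0556 and 0.0875 in IMQ skin, 0.912, 0.786 and 0.829 in CRS skin, and 0.812, 0.422 and 0.610 in control skin. By this ratio the IMQ libraries were the lowest of the 12 and the CRS+IMQ libraries the highest. In the cortex and cuticle sum, Krt35 alone was 112 of 127 FPKM in IMQ replicate 2 and 27.9 of 48.4 in CRS replicate 1. In CRS+IMQ replicate 1 it was 0.270 of 5.97, and Krt84 was 2.71. The ranking by this ratio therefore depends on Krt35. Divided by the inner root sheath keratins instead, the same Krtap sum gave 0.927, 1.08 and 1.45 in CRS+IMQ skin, 0.0983, 0.0075 and 0.0128 in IMQ skin, 0.258, 0.240 and 0.237 in CRS skin, and 2.99, 2.43 and 2.92 in control skin. By that ratio the IMQ libraries were again the lowest, and the control libraries the highest. Krt35, the hair keratin with the highest mean, an acidic keratin that appears early in the forming shaft, had 0.270, 0.452 and 0.162 FPKM in CRS+IMQ skin, 3.93, 112 and 49.1 in IMQ skin, 27.9, 29.3 and 27.9 in CRS skin, and 0.127, 0.692 and 0.457 in control skin. It was at a low level in CRS+IMQ skin, like in control skin, whereas Krtap7-1 and Krtap8-1 were at 1.28 to 2.36 FPKM in CRS+IMQ skin and at 0 in control skin. These ratios are descriptions, and no test was made of them.

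**Figure D4:**
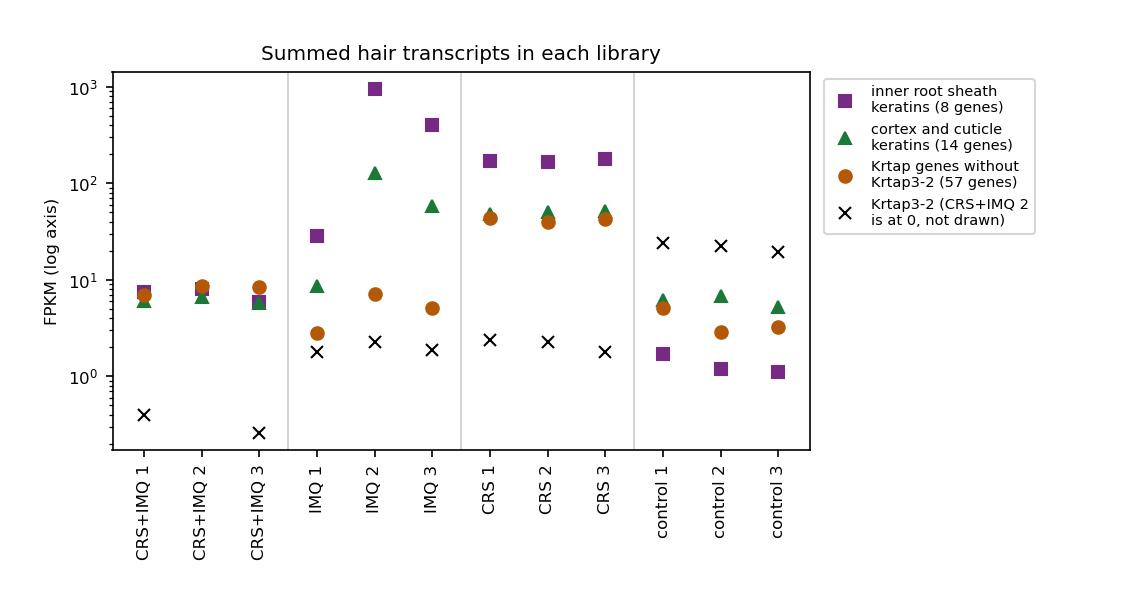
Summed FPKM of inner root sheath keratins, cortex and cuticle keratins, and Krtap genes without Krtap3-2, with Krtap3-2 itself, in each library on a log axis. The keratin sums of IMQ replicate 2 reach 944 and 127 while its Krtap sum is 7.08, and in CRS skin the Krtap sums (39.8 to 44.1) lie close to the cortex and cuticle keratins (48.4 to 51.2).

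Other hair lists gave these counts, from the same fits. In CRS against control skin, 8 of 10 cortex and cuticle keratins tested rose and 0 fell, 5 of 5 inner root sheath keratins rose, and 3 of 4 genes of shaft and sheath assembly rose. Their median log2 changes were 1.54, 4.59 and 1.63, and that of all genes tested was -0.09. Of all genes tested there, 15.3% rose and 28.4% fell. The 8 cortex and cuticle keratins that rose were under 1 FPKM in every control library. So were the sheath keratins other than Krt28, and Tchh and Padi3 of the assembly list. All of these passed the filter through the CRS libraries alone, so their direction was fixed and these counts are no support. Of 7 transcription factors of hair matrix and precortex, 5 rose and 2 fell in that comparison. Lef1, among those that rose, was under 1 FPKM in every control library, so the filter fixed its direction. Dlx3, a homeobox factor of the hair matrix, rose by 1.0 (adjusted p = 0.00613), and Gata3, a factor of the inner root sheath, fell by 1.57 (adjusted p = 0.00156). In CRS+IMQ against IMQ skin, 0 of 3 cortex and cuticle keratins rose and 2 fell, 2 of 5 inner root sheath keratins fell and 6 of 7 transcription factors fell, with median changes of -1.38, -4.02 and -2.65 against -0.07 for all genes. Of all genes tested there, 18.7% rose and 18.2% fell. The keratins that fell (Krt32, Krt35, Krt28 and Krt73) were under 1 FPKM in every CRS+IMQ library, as were Msx1, Msx2 and Lef1. The filter thus fixed their direction. Of 4 genes of shaft and sheath assembly, 2 rose and 1 fell there, with a median of 0.23. Tgm3, a transglutaminase that cross-links proteins, rose by 1.86 (adjusted p = 0.000201). Its mean was 38.0 FPKM in CRS+IMQ, 9.86 in IMQ, 2.23 in CRS and 4.03 in control skin. It was thus lowest in CRS skin, where most Krtap genes were highest. Tchhl1 was under 1 FPKM in every IMQ library and Padi1 in every CRS+IMQ library, so the filter fixed their directions too. No contrast is therefore read between the medians of these lists and the rises of Krtap7-1 and Krtap8-1. In CRS+IMQ against CRS skin, 10 of 11 cortex and cuticle keratins fell, and 5 of 5 inner root sheath keratins fell. Of all genes tested there, 25.9% fell and 35% rose. The 10 keratins were under 1 FPKM in every CRS+IMQ library, so the filter fixed their direction and their count is no support. Of the sheath keratins, Krt25 and Krt71 reached 1 FPKM in every CRS+IMQ library too.

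Markers of other cells moved with the groups, and their part in the Krtap results was not tested. Of 9 melanocyte genes, cells that pigment the growing shaft, the summed FPKM was 30.4 to 36.7 in CRS+IMQ skin, 50.3 to 186 in IMQ skin, 83.5 to 95.4 in CRS skin, and 14.3 to 17.6 in control skin. Of 7 melanocyte genes tested in CRS against control skin, 6 rose, where 15.3% of all tested genes rose and 28.4% fell. Tyr and Slc45a2 were under 1 FPKM in every control library, so the filter fixed their direction. Of 8 cell cycle genes 6 rose in that comparison, and the sum was 71.2 to 72.7 FPKM in CRS+IMQ skin, 62.5 to 205 in IMQ skin, 77.0 to 78.1 in CRS skin, and 40.6 to 59.7 in control skin. The 9 interfollicular epidermis genes, which mark the skin surface between follicles, summed to 15190 to 15382 FPKM in CRS+IMQ skin, 6649 to 9547 in IMQ skin, 2546 to 2693 in CRS skin, and 10081 to 17209 in control skin. All 9 fell in CRS against control skin, but Flg was under 1 FPKM in every CRS library, so the filter fixed its direction. The 10 skeletal muscle genes summed to 12026 to 12245 FPKM in CRS+IMQ skin, 20631 to 29359 in IMQ skin, 41093 to 42718 in CRS skin, and 11976 to 25827 in control skin. Of the 10 muscle genes, 6 rose and 1 fell in CRS against control skin. Fibroblast genes (6) summed to 2022 to 2051, 278 to 645, 889 to 893 and 563 to 901 FPKM in CRS+IMQ, IMQ, CRS and control skin, adipocyte genes (5) to 262 to 272, 218 to 226, 454 to 466 and 328 to 685, and leukocyte genes (6) to 4377 to 4479, 262 to 450, 198 to 208 and 1140 to 1542. Of these 11 lists, 1 gene of inner root sheath keratins, 4 of cortex and cuticle keratins and 1 melanocyte gene were at 0 in all controls (Krt26, Krt33b, Krt40, Krt81, Krt82 and Oca2). The libraries of a stressed group lay close together in several sums, such as the interfollicular one (SD 96.0 in CRS+IMQ, 1460 in IMQ, 80.7 in CRS and 3745 in control skin), so each stressed group was also averaged to 1 sample. The lone sample is then assumed to vary like the libraries it is set against, and several Krtap genes are at 0 in all controls. On that assumption CRS against control gave 6 higher and 1 lower Krtap gene, and CRS+IMQ against IMQ gave 0 higher and 1 lower.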

How the data were processed

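Per the labels, TRIzol was used to extract total RNA and a NovaSeq to sequence it. The submitters' processing notes name StringTie, edgeR, limma and the build mm10 without versions or roles. The aligner is not given in the sources used here. Deposited by the authors were FPKM, 1 column per library, in 2 tables (CRS with control, CRS+IMQ with IMQ), with 0.0001 in place of 0. Per the file headers, further columns hold the ratio of the groups, the log2 of that ratio, and p-values with q-values, from a test that is not stated.

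Values at or under 0.0001 were set to 0. The 2 tables were joined by gene identifier. Genes that reached 1 FPKM in 3 or more libraries of a fit were tested on log2(FPKM + 1), in R 4.3.3 with limma 3.58.1 and statmod 1.5.0, using trend and robust variances, two-sided, adjusted by Benjamini-Hochberg over all genes tested. Comparisons of 2 groups used their 6 libraries, the interaction all 12. With 3 libraries against 3 the smallest exact p is 0.1, so every call depends on limma's pooled variances. The code was tested on simulated data. Counts of reads were not used here. Depth was estimated from the steps between low FPKM values, searched from 12 to 30 M fragments. Of the low values, 35.37% to 38.77% came within 0.05 of a whole number of fragments, so reads were not recovered and no count test was run.

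Protein classes, planned from protein sequences, were taken from codons of GENCODE M21 coding sequences, and promoters from RefSeq on GRCm38.p6. Values in every library are given, by rule, for the gene with the highest mean over all libraries in each subfamily with a gene at a group mean of at least 1 FPKM, and for the 2 largest rises and 2 largest falls called without overlap of the groups in each comparison (for the interaction, whatever the overlap). Krtap3-1, Krtap3-3 and other Krtap genes were named after their values were seen. The members and lists were chosen with earlier results of these data known. Alternatives were quantile and median-ratio scaling, a pseudocount of 0.1, other filters, all 12 libraries or sample weights, a replicate block, each stressed group as 1 sample, a 2-fold threshold, and leaving out each library. The hair keratin Krt85 was not matched and is not analysed here.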

Additional observations from a re-analysis of the deposited data

Results flagged for a closer look

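The effect of stress with imiquimod, against that without it, had a difference past the threshold for 8 of 9 Krtap genes tested, by the interaction term of limma over all 12 libraries, as a difference of log2 effects. It was -2.12 for Krtap7-1, -2.02 for Krtap8-1, -1.91 for Krtap11-1, -1.71 for Krtap17-1, -1.36 for Krtap13-1, -1.09 for Krtap22-2 and -0.76 for Krtap3-1, and 1.59 for Krtap3-2. Of all 14864 genes tested, 21.2% were lower and 28.1% higher. Krtap11-1, Krtap13-1, Krtap22-2 and Krtap3-1 reached 1 FPKM in the CRS libraries alone, so the filter favoured a negative sign for them. With 0.1 FPKM added in place of 1, the difference for Krtap3-2 was 0.34 (adjusted p = 0.696), so it was not shown to differ on that scale. For Krtap7-1, Krtap8-1, Krtap11-1, Krtap13-1, Krtap22-2 and Krtap3-1 the CRS libraries were the highest and the control libraries at or near 0. For Krtap17-1 the mean was 0.128 FPKM in CRS+IMQ skin against 1.54 FPKM in IMQ skin, and 0.939 FPKM in CRS skin against 0.291 FPKM in control skin. Krtap17-1 reached 1 FPKM in IMQ replicates 1 and 3 and CRS replicate 3 alone, so the filter favoured a negative sign for it too. With every gene above 0 tested, its change was -1.14 in CRS+IMQ versus IMQ (adjusted p = 0.0175) and 0.57 in CRS versus control (adjusted p = 0.0906, not passed).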

How the results depend on the processing

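Calls were most sensitive to the filter. Without it, the Krtap genes called numbered 23 higher in CRS versus control, 4 higher and 2 lower in CRS+IMQ versus IMQ, 25 lower in CRS+IMQ versus CRS and 24 lower in the interaction, because more genes were tested. With a mean of 1 FPKM over all libraries required, 3 were higher in CRS versus control and 3 lower in the interaction, because fewer were tested. The rises in CRS+IMQ versus IMQ were the weakest result: 1 remained with a pseudocount of 0.1 (Krtap7-1) and 1 with a 2-fold threshold (Krtap7-1), and 0 with each stressed group as 1 sample, where the spread comes from the IMQ libraries alone. Leaving out 1 library gave 0 to 2 rises there, with 0 without CRS+IMQ replicate 2, CRS+IMQ replicate 3 or IMQ replicate 3 and 1 without CRS+IMQ replicate 1. Krtap8-1 had adjusted p between 0.00789 and 0.103 over those 6 cases. With a pseudocount of 0.1 the interaction had 0 higher Krtap genes. No direction was reversed for a gene named by the rule. Quantile scaling moved the median of all genes to 0.08, against -0.09 unscaled, in CRS versus control, to -0.07, against 0.06, in CRS+IMQ versus CRS, and to -0.13, against 0.04, in the interaction. It gave 56.2%, 43.2% and 43.2% of all calls as higher there, against 35.01%, 57.5% and 56.96% unscaled, and 44.1% against 31.2% in IMQ versus control. Median-ratio scaling gave 47.8% in CRS versus control. The Krtap counts were the same under quantile scaling in all 5 comparisons. Same-numbered libraries did not deviate together (correlations of -0.118 to 0.0385), so the numbers were not taken as pairs. The replicate block moved 1 count, with 2 lower in CRS versus control as Krtap3-3 joined. Depth limits every gene with a few fragments, and a value of 0 is not absence.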

Other observations

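Near Krtap3-2, the keratin gene Krt23 (chr11:99477974-99493137) had 4.77, 3.85 and 3.43 FPKM in CRS+IMQ skin, 15.8, 14.5 and 16.8 in IMQ skin, 4.25, 4.05 and 5.06 in CRS skin, and 171, 134 and 87.1 in control skin, chosen after its values were seen among the genes within reach of Krtap3-2. Its control libraries lay above all others, as for Krtap3-2, and its CRS+IMQ and CRS libraries overlapped. Krt39 and Krt40, which lie between Krt23 and Krtap3-3, were at most 0.218 FPKM in every library.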
